A study of Mus musculus with 12 samples.

Results

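The 9 genes described here, across 12 Affymetrix mouse expression arrays, stood out by the size of their difference between estradiol-treated and unstimulated RAW264.7 cells. They were chosen as genes outside the main inflammatory and lipid pathways, which is a way of grouping them and not a result. They are Celf4, Crip2, Sulf2, Gja1, Ces2g, Dkk2, Gpr34, Calml4 and Ms4a4c. All probe sets paired with exactly 1 of these symbols were taken, which gave 17 of the 20380 single-gene probe sets and 9 of the 12393 genes they represent. The array held 22690 probe sets in all. Because the genes were picked on the estradiol contrast itself, their estradiol differences are given as a description with no test. The comparison of pregnant with control mice used other arrays and was tested.

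The study asked how estradiol acts on mouse macrophages, in a cell line and through pregnancy. It held 4 groups of 3 arrays. RAW264.7, a macrophage-like line from a male mouse, was either left unstimulated (called vehicle-treated in the series text) or kept overnight with estradiol at 1 ug/mL. The other groups were bronchoalveolar lavage (BAL) macrophages, cells washed from the airways and alveoli, of control and of pregnant mice, whose RNA was extracted without culture. The labels attach the estradiol text to the lavage samples too, which conflicts with the series text, so groups were taken from the group label. The labels state no strain, genotype or age, no gestational day, no sex of the controls and no sorting of the lavage cells. All RAW264.7 arrays share 1 cell line, and nothing states that replicates are separate cultures or animals. The p-values below therefore reflect only how far these arrays spread, in part perhaps for technical reasons. In such bulk RNA, fewer cells of a type and less RNA per cell cannot be told apart.

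Estradiol acts through estrogen receptors, which are ligand-activated transcription factors. They bind estrogen response elements directly or join other factors on DNA, among them AP-1 and Sp1. Macrophages express estrogen receptors, and alveolar macrophages are the resident phagocytes of the air space, where they clear particles and surfactant. The 9 genes do not form 1 pathway. Sulf2 and Dkk2 act outside the cell, Gja1, Gpr34 and Ms4a4c encode membrane proteins, and Celf4, Crip2, Calml4 and Ces2g act within the cell.

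Sequence next to the start sites is shown for the genes with the largest rises and falls that have a RefSeq promoter entry. None is shown for Celf4 or Gpr34. Each run is the 250 bases before the most upstream RefSeq start (build GRCm38.p6), read 5′ to 3′ on the gene's strand. Capitals mark the GC box bound by Sp1 (GGGCGG or its reverse complement CCGCCC) and the TATA box (TATAAA). Crip2 lies at chr12:113139986-113140235 on the plus strand, Sulf2 at chr2:166155684-166155933 on the minus strand, Dkk2 at chr3:132085042-132085291 on the plus strand and Ms4a4c at chr19:11407411-11407660 on the plus strand.
Crip2: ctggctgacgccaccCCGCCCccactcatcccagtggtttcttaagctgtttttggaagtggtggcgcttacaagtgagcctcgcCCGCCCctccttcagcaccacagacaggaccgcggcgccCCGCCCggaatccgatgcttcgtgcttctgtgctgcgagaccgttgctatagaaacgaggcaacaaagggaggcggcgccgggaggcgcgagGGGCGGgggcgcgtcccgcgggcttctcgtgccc
Sulf2: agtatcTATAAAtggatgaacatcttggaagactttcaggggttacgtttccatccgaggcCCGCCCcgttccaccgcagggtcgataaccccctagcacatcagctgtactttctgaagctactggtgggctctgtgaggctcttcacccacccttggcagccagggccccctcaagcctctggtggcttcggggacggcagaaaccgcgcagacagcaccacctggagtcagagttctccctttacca
Dkk2: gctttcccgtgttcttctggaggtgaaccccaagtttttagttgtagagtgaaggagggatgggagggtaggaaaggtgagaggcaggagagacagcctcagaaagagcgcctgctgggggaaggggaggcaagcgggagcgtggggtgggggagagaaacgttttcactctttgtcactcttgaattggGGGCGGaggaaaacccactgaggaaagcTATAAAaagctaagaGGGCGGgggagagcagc
Ms4a4c: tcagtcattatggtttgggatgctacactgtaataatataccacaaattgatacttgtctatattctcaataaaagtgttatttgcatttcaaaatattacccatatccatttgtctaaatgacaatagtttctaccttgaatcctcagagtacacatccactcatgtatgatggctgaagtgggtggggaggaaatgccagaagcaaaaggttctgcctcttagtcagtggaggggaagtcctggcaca

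These upstream stretches differed in composition. GC content was 66.8% for Crip2, 57.2% for Sulf2, 55.6% for Dkk2 and 38.8% for Ms4a4c, against a median of 52.4% over all 32851 entries of 27025 genes. Crip2 held 4 GC boxes, Dkk2 held 2 and Sulf2 held 1. Dkk2 had a TATA box 32 to 27 bases before its start, and Sulf2 had one 244 to 239 bases before its start. The Ms4a4c stretch matched none of the motifs searched.

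In all, 7 motifs were searched on both strands in the 9 entries found for 7 of the 9 genes. The estrogen response element was written as GGTCA and TGACC with 3 bases between them, and its half-site as AGGTCA, so the half-site can overlap the full element. The full element occurred in 0.0639% of all entries and the half-site in 4607 of the 32851, and both in 0 of the 9 entries here. The NF-kB motif (GGGA and TTCC with 2 bases between them, 1.21% of all entries) and the cAMP response element (TGACGTCA, 1.55%) were also found in 0 of the 9. An AP-1 motif (TGANTCA, 6.75% of all entries) was present in 1 entry, that of Gja1, 19 to 13 bases before the start. GC boxes were present in 5 of the 9 entries (32.7% of all) and TATA boxes in 2 (12.4% of all). A match is a run of letters and not a site shown to be bound, and a missing match refers only to these 250 bases.

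Levels are given as log2(intensity + 1). No detection calls were used, so distance from the dimmest signals is shown by the array's own 10th and 40th percentiles, which lay at 4.20 to 4.24 and 6.98 to 7.14 on the 12 arrays. The lowest value on an array was 2.91 to 2.99. Median intensity was 369 to 393. Macrophage markers were present in every group, with 9 of 10 above the 40th percentile. Of the 8 alveolar macrophage markers, 8 were above it in both lavage groups and 2 in both cell-line groups. The 7 neuronal markers were all below it in every group. Epithelial markers reached summed log2 levels of 14.69 to 15.21 in lavage and 8.68 to 9.01 in the cell line. One cell-line array, estradiol replicate 2, had more 3′-biased RNA by its actin probe sets (3′ minus 5′ difference of 0.74, against 0.39 to 0.48 on the other 5 cell-line arrays), so estradiol differences are also given without it.

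For 9 of the 17 probe sets, representing Celf4, Crip2, Sulf2, Gja1 and Ces2g, the 3 estradiol arrays were all above the 3 unstimulated arrays and the means differed by more than 2-fold. For 5 probe sets, representing Dkk2, Gpr34, Calml4 and Ms4a4c (2 sets), they were all below, again by more than 2-fold. In the remaining 3 probe sets the groups overlapped. For Celf4, Gja1 and Ces2g, unstimulated readings lay near or under the 10th percentile of their arrays. Their folds are given below with every reading under that percentile raised to it, as a floor. Such folds are no lower bounds over arrays or over other probe sets of a gene. With that floor, which was added after seeing the data, 6 of the 9 higher probe sets remained above 2-fold, and the 3 that did not are Gja1 sets. Groups failed to overlap in the higher direction for 17.8% and in the lower direction for 15.6% of all 20380 probe sets, and since the genes were chosen on this contrast nothing is read from their count. Over all probe sets, 157 differed by more than 2-fold. Of the 3 genes with several probe sets, Celf4 and Gja1 had sets that differed from the leading one, which is the set with the highest mean over the 12 arrays. In unstimulated cells the brightest sets were Celf4 1426929_at (6.73, against 4.32 for the leading set) and Gja1 1415801_at (5.50 against 4.16). Their estradiol differences were 0.12 and -0.09.

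**Figure D1:**
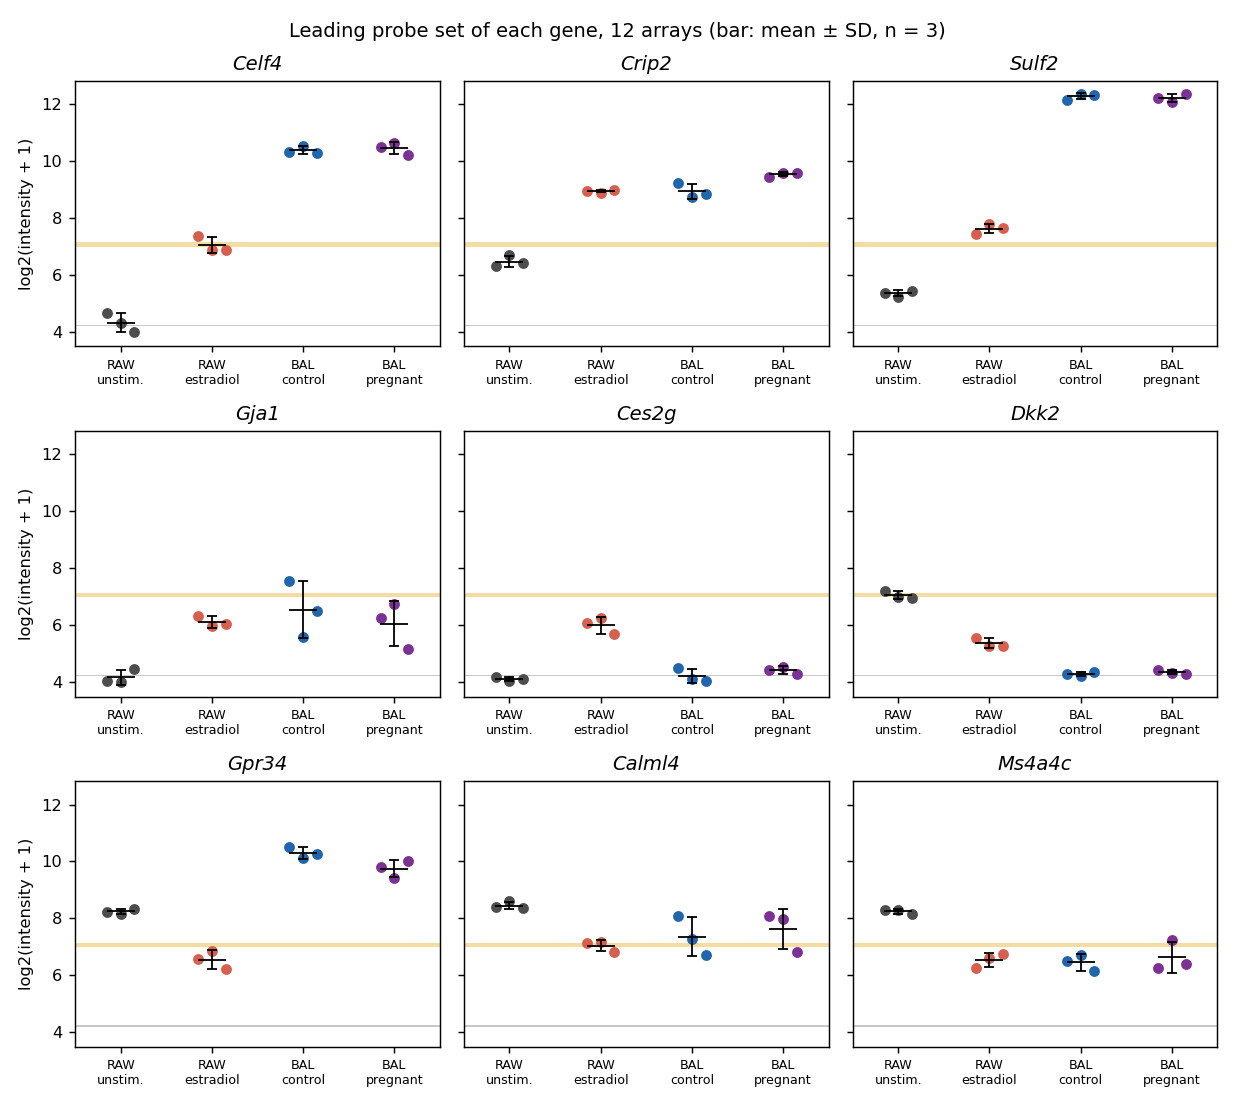
Level of the leading probe set of each gene, log2(intensity + 1), on the 12 arrays (points), with mean ± SD of each group (bars, n = 3), for RAW264.7 cells (RAW) unstimulated or with estradiol and for lavage cells (BAL) of control and pregnant mice. The grey and yellow bands are the range of the 10th and 40th percentiles of the arrays. Estradiol arrays of Crip2 (8.90 to 8.97) lay within the range of the lavage controls (8.74 to 9.23), and Ces2g reached 5.67 to 6.25 with estradiol and at most 4.54 in the other groups.

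Sulf2 encodes an extracellular sulfatase that trims sulfate groups from heparan sulfate chains and thereby alters how growth factors and Wnt ligands bind at the cell surface. The unstimulated arrays read 5.36, 5.24 and 5.46 and the estradiol arrays 7.45, 7.80 and 7.65. All 3 estradiol arrays were above all 3 unstimulated arrays. The difference was 2.28 ± 0.10 (SE, n = 3 per group), or 4.85-fold, and it ranked 6 in size among 20380 probe sets. In lavage the control arrays read 12.16, 12.36 and 12.34 and the pregnant arrays 12.22, 12.10 and 12.36. These groups overlapped and lay at the 88th to 91st percentile of their arrays, so the order of levels was unstimulated, then estradiol, then both lavage groups together. The lavage controls exceeded the unstimulated line by 6.93.

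Dkk2 encodes a secreted dickkopf protein that modulates Wnt signalling through LRP co-receptors. The unstimulated arrays read 7.20, 7.004 and 6.94 and the estradiol arrays 5.56, 5.26 and 5.26. Every estradiol array was lower, and the difference of -1.69 ± 0.11 (SE) corresponded to a 3.22-fold lower level. On the unstimulated arrays this probe set lay near the 40th percentile, so it started from a dim signal. The lavage arrays read 4.29, 4.21 and 4.34 in controls and 4.44, 4.32 and 4.29 in pregnant mice, next to the 10th percentile. The order was therefore unstimulated, then estradiol, then both lavage groups, which overlapped.

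Gja1 encodes the principal connexin of heart muscle, a subunit of gap junction channels that join the cytoplasm of neighbouring cells, and it had 6 probe sets. Its leading set, 1437992_x_at, read 4.05, 3.99 and 4.45 in unstimulated cells and 6.34, 5.96 and 6.05 with estradiol. The groups did not overlap, and the difference was 1.95 ± 0.15 (SE). With 2 of the 3 unstimulated readings under the 10th percentile and raised to it, the level was 3.54-fold higher. Among the other sets, 1415800_at (1.89 ± 0.07), 1438945_x_at (1.54 ± 0.17), 1438650_x_at (1.46 ± 0.17) and 1438973_x_at (1.04 ± 0.08) were also higher without overlap. All 3 unstimulated readings of these 4 sets were under the 10th percentile, and with that floor their differences became 1.74, 0.99, 0.61 and 0.20. The exception was 1415801_at, which read 5.45, 5.39 and 5.66 against 5.55, 5.52 and 5.16, a difference of -0.09 ± 0.12 with overlapping groups. The platform annotation lists the same sequence record for 1415801_at and 1415800_at, so 2 probe sets designed on 1 record gave different values. The _x suffix that 4 of the 6 sets carry marks probes that can match other transcripts, and the readings of those sets are uncertain to that extent.

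In lavage the leading Gja1 set was spread widely within each group. Controls read 7.56, 5.57 and 6.50 and pregnant mice 6.27, 6.73 and 5.17. Control replicate 1, the highest, also had the highest summed level of the 6 neutrophil markers (14.20, against 12.44 to 13.23 on the other 5 lavage arrays), and the epithelial sums ran in the same order as Gja1 within each group, at 15.08, 14.69 and 14.89 in controls and 15.08, 15.21 and 14.90 in pregnant mice. The part of these cells in the readings was not tested. The lavage groups overlapped each other and the estradiol arrays, so that only the unstimulated group stood apart, at the bottom.

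**Figure D2:**
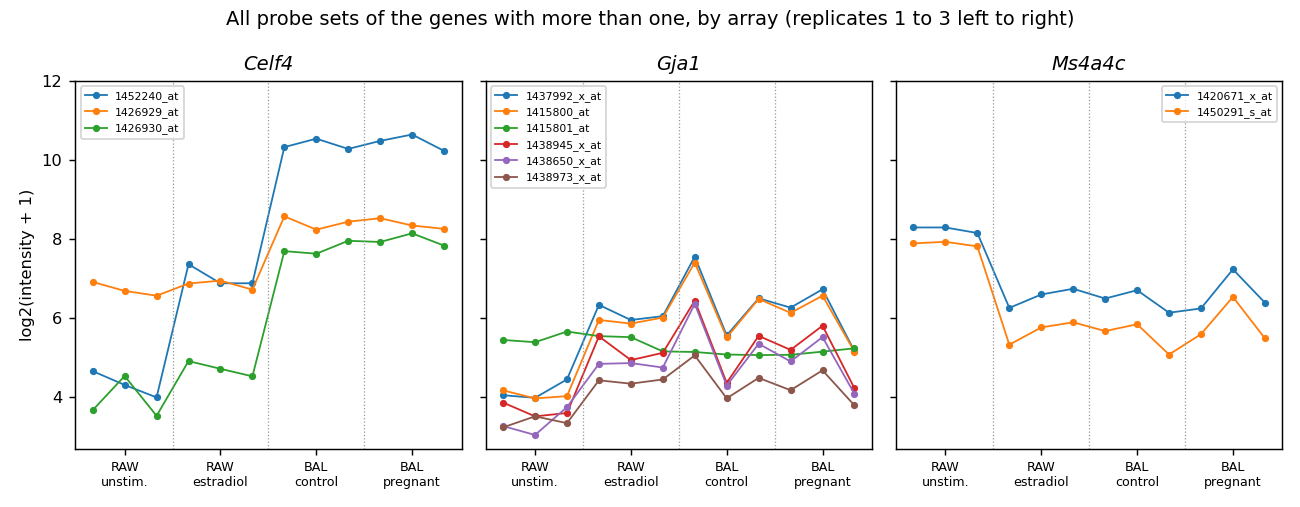
Level, log2(intensity + 1), of every probe set of Celf4 (3), Gja1 (6) and Ms4a4c (2) on the 12 arrays, replicates 1 to 3 of each group from left to right. Lines only join the values of 1 probe set. Gja1 1415801_at stays between 5.07 and 5.66 on all arrays, while the other Gja1 sets move together.

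Gpr34 encodes a receptor coupled to G proteins, related to the P2Y receptors and found on microglia and other macrophages. The unstimulated arrays read 8.24, 8.15 and 8.34 and the estradiol arrays 6.56, 6.87 and 6.23. All estradiol arrays were lower, by 1.28 at the closest. The difference was -1.69 ± 0.16 (SE), a 3.23-fold lower level. Unlike the other 3 genes that were lower with estradiol, Gpr34 was higher in lavage controls than in the unstimulated line (by 2.06), with readings of 10.52, 10.13 and 10.25 in controls and 9.80, 9.43 and 10.003 in pregnant mice. From bottom to top the order was estradiol, unstimulated, pregnant and control, with no overlap between neighbours.

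Ms4a4c belongs to the MS4A family of membrane-spanning proteins of blood cells, to which CD20 on B cells also belongs. Its 2 probe sets carry the suffixes _x and _s, which mark probes shared with other transcripts, so close relatives may contribute to both. The leading set, 1420671_x_at, read 8.30, 8.30 and 8.16 in unstimulated cells and 6.26, 6.60 and 6.75 with estradiol, without overlap. Its difference was -1.71 ± 0.12 (SE), or 3.28-fold lower. The other set, 1450291_s_at, read 7.89, 7.93 and 7.82 against 5.33, 5.77 and 5.90. That difference of -2.22 ± 0.14, 4.65-fold lower, ranked 8 in size among all probe sets and 2 among those that were lower. In lavage the leading set read 6.50, 6.71 and 6.14 in controls and 6.25, 7.24 and 6.39 in pregnant mice. Both lavage groups overlapped the estradiol arrays and lay below the unstimulated ones.

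Celf4 encodes an RNA-binding protein that controls splicing and the stability and translation of mRNA, known chiefly from neurons. Its leading set, 1452240_at, read 4.66, 4.31 and 3.998 in unstimulated cells and 7.37, 6.88 and 6.89 with estradiol. The unstimulated readings were near the 10th percentile, with 1 of the 3 under it, and every estradiol reading was above them by at least 2.22. The difference was 2.72 ± 0.20 (SE), and the level was 6.28-fold higher with the 10th percentile as floor. The lavage arrays read 10.33, 10.54 and 10.28 in controls and 10.49, 10.65 and 10.23 in pregnant mice, 6.06 above the unstimulated line in controls. Neuronal markers were no higher in lavage than in the line, with summed log2 levels of 7.75 to 7.92 against 7.91 to 8.05. All 7 were dim, below the 40th percentile in every group, and a part of neurons in the Celf4 readings was not tested.

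The other 2 Celf4 probe sets gave smaller estradiol differences, although the annotation lists 1 sequence record for all 3. Probe set 1426929_at read 6.92, 6.69 and 6.57 against 6.88, 6.95 and 6.72, a difference of 0.12 ± 0.10 (SE) with overlapping groups. Probe set 1426930_at read 3.68, 4.54 and 3.53 against 4.92, 4.72 and 4.53, a difference of 0.81 ± 0.26, and its groups overlapped by 0.009. In that set 2 of the 3 unstimulated readings were under the 10th percentile, and with that floor the difference was 0.40. Both were higher in lavage controls than in unstimulated cells, by 1.69 and 3.85, so the 3 sets shared the direction of the lavage difference but not the size of the estradiol difference. Averaging the 3 sets lowered the Celf4 difference to 1.22, and averaging the 6 Gja1 sets lowered that of Gja1 to 1.30.

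Crip2 encodes a small protein with LIM domains, zinc-binding folds through which proteins contact each other, and is known from heart and blood vessels. The unstimulated arrays read 6.31, 6.69 and 6.41 and the estradiol arrays 8.96, 8.90 and 8.97. All estradiol arrays were higher by at least 2.20. The difference was 2.48 ± 0.10 (SE), or 5.56-fold, ranked 3 in size. The estradiol mean of 8.95 ± 0.04 (SD, n = 3) lay next to the lavage control mean of 8.94 ± 0.26 (SD, n = 3), whose arrays read 9.23, 8.74 and 8.85. The pregnant arrays read 9.46, 9.58 and 9.57, above all of the others.

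Calml4 encodes a calmodulin-like protein that serves as a light chain in the brush border of the gut. The unstimulated arrays read 8.40, 8.60 and 8.36 and the estradiol arrays 7.13, 7.19 and 6.81. The groups did not overlap, and the difference was -1.41 ± 0.12 (SE), 2.66-fold lower, the smallest among the leading probe sets. Lavage readings were 8.07, 7.29 and 6.72 in controls and 8.09, 7.99 and 6.81 in pregnant mice. Both lavage groups spread over more than 1 log2 unit and overlapped the estradiol arrays, and the unstimulated arrays were above them all.

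Ces2g encodes a carboxylesterase, an enzyme that cleaves esters in drugs and lipids. The unstimulated arrays read 4.18, 4.05 and 4.12, below the 10th percentile of their arrays. With estradiol they read 6.08, 6.25 and 5.67. The estradiol readings were all higher, by 1.89 ± 0.14 (SE), or 3.46-fold with the 10th percentile as floor. They were still below the 40th percentile. Controls read 4.51, 4.11 and 4.03 and pregnant mice 4.42, 4.54 and 4.27, at or close to the 10th percentile. Estradiol readings lay at percentiles 28.4 to 34.2 of their arrays, and those of the 3 other groups at 7.66 to 13.8.

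**Figure D3:**
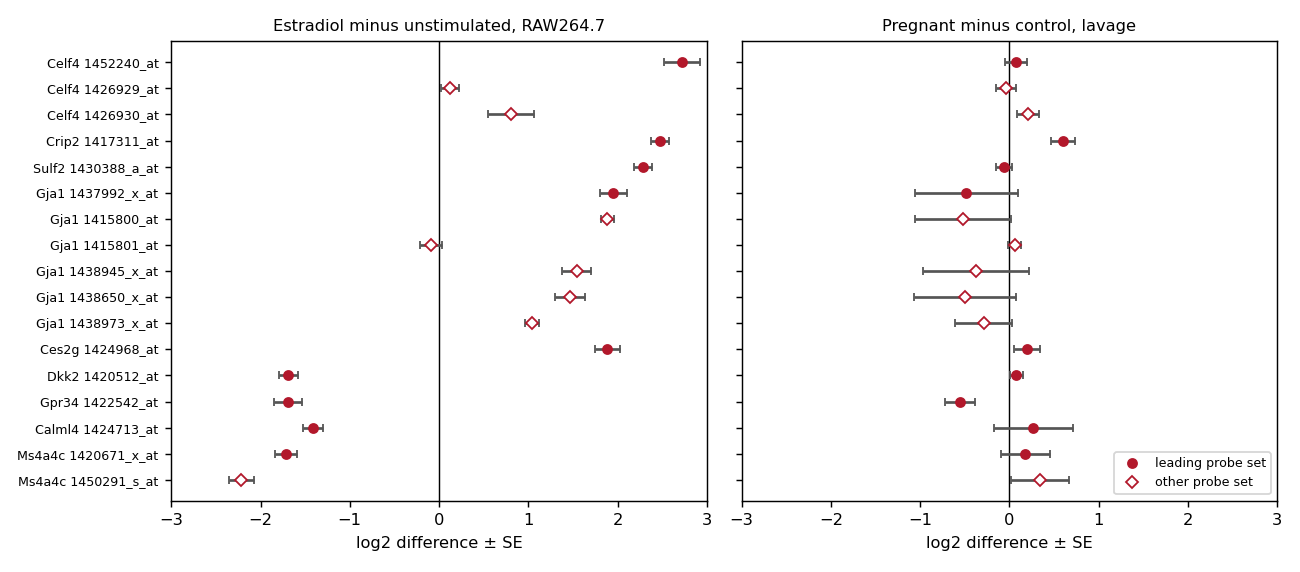
Log2 difference ± SE (bars) of all 17 probe sets, estradiol minus unstimulated in RAW264.7 (left) and pregnant minus control in lavage (right), n = 3 arrays per group. Filled circles are leading probe sets and open diamonds the others. Estradiol differences run from -2.22 to 2.72 and pregnancy differences from -0.56 to 0.60.

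Leaving out estradiol replicate 2, the array with the stronger 3′ bias, gave differences of 2.80 for Celf4, 2.50 for Crip2, 2.20 for Sulf2, 2.03 for Gja1 and 1.76 for Ces2g by their leading sets. The lower group then read -1.64 for Dkk2, -1.85 for Gpr34, -1.48 for Calml4 and -1.75 for Ms4a4c. Each kept its direction.

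Estradiol and lavage differences from the unstimulated line can be set side by side, but both use the same 3 unstimulated arrays, so their likeness is no independent result. For Crip2 the estradiol and lavage control differences were 2.48 and 2.47, for Gja1 1.95 and 2.38, for Celf4 2.72 and 6.06 and for Sulf2 2.28 and 6.93. For Dkk2 they were -1.69 and -2.77, for Calml4 -1.41 and -1.09 and for Ms4a4c -1.71 and -1.80. For Gpr34 they had opposite signs (-1.69 and 2.06), and for Ces2g they were 1.89 and 0.10.

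Pregnancy, the contrast that did not enter the choice of genes, gave no called difference. With limma, 0 of the 17 probe sets passed an adjusted p of 0.05, as did 0% of all 20380, where the smallest adjusted p was 0.237. At an unadjusted p under 0.05 there were 2 of the 17 (and 1992 of 20380), the sets of Crip2 and Gpr34. The same 2 were the ones whose groups did not overlap, which was so for 15.9% of all probe sets. The 17 differences were positive in 9 and negative in 8, with a median of 0.06 against 0.02 over all probe sets and a median size of 0.27 against 0.09. Several of the 17 sets are of Gja1, which spread widely within each lavage group, so these are not medians over genes.

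Crip2 was higher in pregnant than in control mice by 0.60 ± 0.13 (SE; 95% interval 0.28 to 0.91; 1.51-fold), with limma's unadjusted p of 0.003 and adjusted p of 0.413. All 3 pregnant arrays exceeded all 3 control arrays. Gpr34 was lower by 0.56 on the log2 scale, a difference of -0.56 ± 0.17 (SE; 95% interval -0.96 to -0.15; 1.47-fold), with limma's unadjusted p of 0.014 and adjusted p of 0.440, and all 3 pregnant arrays were below all 3 controls. Neither difference passed the test after adjustment. Without pregnant replicate 2, the lavage array with the strongest 3′ bias, they were 0.58 and -0.40.

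Markers of other cells were compared in the same lavage arrays. The 13 probe sets of epithelial markers had a median difference of 0.46 with 11 positive, and the 11 of T cell markers a median of -0.55 with 2 positive. None was called with limma, and 3 and 4 of them had an unadjusted p under 0.05, beside 1992 of all 20380 probe sets. Several of these sets are of the same gene. Summed epithelial levels were 14.69 to 15.08 in controls and 14.90 to 15.21 in pregnant mice, and summed T cell levels 13.56 to 13.71 and 13.53 to 13.63. The epithelial sums were set mostly by Krt19 (13.64 in controls and 13.80 in pregnant mice) and Scgb1a1 (13.02 and 12.98). Scgb1a1 (-0.04) and Cdh1 (-0.30) were the epithelial sets with negative differences. The T cell sums were set mostly by Cd2, at a mean of 13.39 in both groups (difference 0.003). The other positive set was of Il7r (0.11), and Cd3d, Cd3e and Cd3g were at -0.82, -1.08 and -1.37. Fibroblast and endothelial markers, of which at most 1 of 8 was above the 40th percentile in either group, summed to 8.40 to 8.44 in controls and 8.59 to 8.68 in pregnant mice, without overlap. Their 13 probe sets had a median difference of 0.07, with 10 positive, 2 at an unadjusted p under 0.05 and 0 called with limma. Pdgfra, the brightest of these markers, took the largest part in the sums, at 6.66 in controls and 7.17 in pregnant mice. Neuronal sums, 7.75 to 7.81 and 7.86 to 7.92, did not overlap either, though all of these markers were below the 40th percentile. Among single probe sets, the lavage groups did not overlap in 15.9% of all. B cell sums were 7.39 to 7.73 and 7.23 to 7.44. The part of these cells in the Crip2 and Gpr34 readings was not tested.

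For the other genes the pregnancy intervals show how much could have gone unseen, given first for leading probe sets. The difference was -0.06 (95% interval -0.29 to 0.17; limma adjusted p = 0.856) for Sulf2, 0.07 (-0.23 to 0.37; adjusted p = 0.878) for Celf4 and 0.07 (-0.10 to 0.25; adjusted p = 0.761) for Dkk2. The other Celf4 sets gave -0.04 (-0.31 to 0.23) and 0.21 (-0.08 to 0.49). Ces2g gave 0.19 (-0.15 to 0.54). Intervals were wide for Gja1 (-0.49, from -1.87 to 0.89), Calml4 (0.27, from -0.79 to 1.33) and Ms4a4c (0.18, from -0.49 to 0.84), so that a 2-fold fall of Gja1 and a 2-fold rise of Calml4 lie inside them. For the other Ms4a4c set, at 0.34 (-0.42 to 1.11), a 2-fold rise does too.

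To see whether relatives and pathway partners moved along, 9 lists holding 111 measured genes and 171 probe sets were examined, with the 9 responders left out. With limma, 6 of the 171 probe sets rose with estradiol and 12 fell at an adjusted p under 0.05, against 5.43% and 4.24% of all 20380 probe sets. Their median difference was 0.01, as over all probe sets. Of the 171, 1 passed a 2-fold difference. With all arrays given 1 common median the counts were 8 and 8. They also moved with the arrays included, to 10 higher and 16 lower without estradiol replicate 2. They fell to 2 higher and 4 lower without unstimulated replicate 1 or without unstimulated replicate 2, to 2 and 6 without unstimulated replicate 3 and to 2 and 5 without estradiol replicate 3. Of the 12 sets that fell, 6 lay in the MS4A list.

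In the MS4A list, 6 of 15 probe sets (5 of 11 genes) fell and 0 rose, with a median of -0.14. The count of 6 became 3 without unstimulated replicate 1, without unstimulated replicate 2 or in the fit of all 12 arrays, and 4 without unstimulated replicate 3 or estradiol replicate 3. Ms4a6c fell by 0.72 (SE 0.05, limma adjusted p = 0.0007), Ms4a6b by 0.65 (SE 0.06, adjusted p = 0.0018) and Ms4a4b by 1.03 (SE 0.13, adjusted p = 0.0058) in 1 of its 2 sets, the other being dim and at 0.04. These are relatives from the gene cluster of Ms4a4c. The Ms4a4c sets carry the suffixes of shared probes, whereas the sets named here for Ms4a6c, Ms4a6b and Ms4a4b carry neither. Any part of shared probes in the readings was not tested. When all 12 arrays were fitted together, the adjusted p became 0.0562 for Ms4a6c and 0.335 for Ms4a4b.

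In the heparan sulfate list, the setting of Sulf2, 4 of 42 probe sets rose and 2 fell. These counts were 2 and 1 without unstimulated replicate 1 or 2 or estradiol replicate 3, 2 and 2 without unstimulated replicate 3, 3 and 1 without estradiol replicate 1, 5 and 4 without estradiol replicate 2, 5 and 1 under a common median and 0 and 3 in the fit of all 12 arrays. Sdc1 rose by 0.51 (SE 0.05, limma adjusted p = 0.0023) in the first of 3 called sets out of 4, and Sdc4 by 0.52 (SE 0.06, adjusted p = 0.0034) in 1 of 2 sets, the other at 0.22 (adjusted p = 0.0576), both encoding syndecans that carry heparan sulfate on the cell surface. Ext1, an enzyme that builds the chains, fell by 0.45 (SE 0.05, adjusted p = 0.0033). The other called fall was a set of Sdc3, also a syndecan gene (-0.33, SE 0.06, limma adjusted p = 0.0242). Its other sets, at -0.28 and -0.02, were not called. The called Sdc3 set was dim, at 5.36 in unstimulated and 5.03 in estradiol-treated cells, and at most at percentile 26.1. With the filter on dim sets the list counts were 5 higher and 1 lower, and the fall that remained was that of Ext1. The only called syndecan fall therefore rests on a dim set. In the fit of all 12 arrays the adjusted p was 0.535 for Sdc1 and 0.113 for Sdc4.

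In the Wnt list, the setting of Dkk2, 2 of 62 probe sets rose and 1 fell, each 1 of several sets of its gene. Dvl1, a cytoplasmic relay of Wnt receptors, rose by 0.26 (SE 0.05, limma adjusted p = 0.0285) in 1 of 2 sets, with the other at 0.28 (adjusted p = 0.0866). One of 4 sets of Tcf7l2, a transcription factor at the end of the pathway, rose by 0.60 (SE 0.14, adjusted p = 0.0394), and the others were at 0.40, 0.07 and -0.08 and not called. One of 3 sets of Ctnnb1, which encodes beta-catenin, fell by 0.29 (SE 0.07, adjusted p = 0.0447), and the others were at -0.64 (adjusted p = 0.0782) and 0.01 (adjusted p = 0.898). Without any single unstimulated array or without estradiol replicate 3, the adjusted p was 0.0833 to 0.122 for Dvl1, 0.0825 to 0.138 for Tcf7l2 and 0.105 to 0.160 for Ctnnb1. Tcf7l2 was also at 0.0530 without estradiol replicate 1, and Dvl1 at 0.0745 in the fit of all 12 arrays.

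Among relatives of Crip2, 2 of 6 probe sets fell and 0 rose. Csrp2 fell by 0.33 (SE 0.07, limma adjusted p = 0.0384) and Crip1 by 0.22 (SE 0.05, adjusted p = 0.0485), opposite in sign to Crip2. Both calls were lost without any single unstimulated array and without estradiol replicate 1 or 3 (adjusted p of 0.0789 to 0.138 for Csrp2 and 0.0771 to 0.169 for Crip1), and Crip1 also without estradiol replicate 2 (0.0626). After all arrays were given 1 common median, the adjusted p was 0.0875 for Csrp2 and 0.102 for Crip1. Of the relatives of Gpr34, 1 of 7 probe sets fell and 0 rose. That set, P2ry1, fell by 0.52 (SE 0.08, limma adjusted p = 0.0140), and the adjusted p was 0.0506 to 0.0614 without any single unstimulated array or without estradiol replicate 3. The P2ry1 and Csrp2 sets were dim in the cell line, at most at percentiles 39.7 and 35.3, and dropped out under the filter on dim sets. With that filter, 0 relatives of Crip2 rose and 1 fell, and 1 relative of Gpr34 rose and 0 fell.

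In the remaining 4 lists no probe set was called with limma. These were the CELF proteins (9 probe sets, 1 with an unadjusted p under 0.05), the connexins and pannexins (14 and 1), the carboxylesterases (10 and 0) and the calmodulins and partners of Calml4 (6 and 1). Over all probe sets, 5205 of 20380 had an unadjusted limma p under 0.05 with estradiol. The sizes of the differences were at most 0.37 among CELF, 0.20 among connexin, 0.12 among carboxylesterase and 0.18 among calmodulin probe sets, beside 2.72, 1.95, 1.89 and 1.41 for the leading sets of Celf4, Gja1, Ces2g and Calml4. As those genes were chosen for size in this comparison, nothing is read from the gap. In pregnancy, 0 of the 171 list probe sets were called with limma and 21 had an unadjusted p under 0.05, beside 1992 of all 20380.

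**Figure D4:**
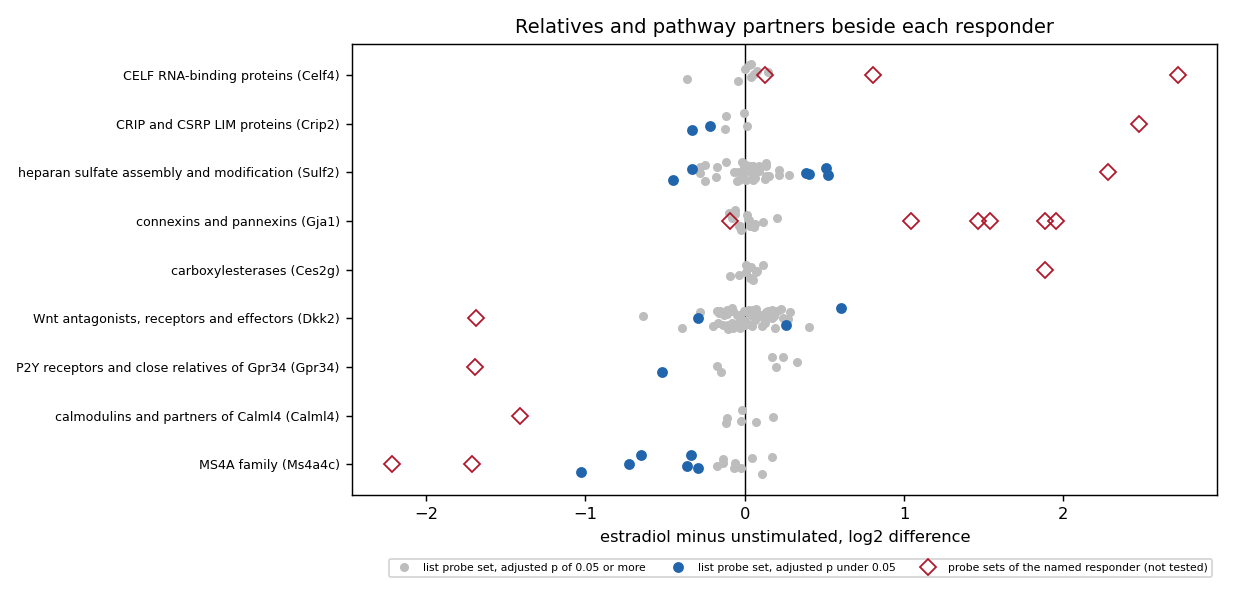
Log2 difference, estradiol minus unstimulated, of each probe set in the 9 lists of relatives and pathway partners (circles, blue where limma's adjusted p was under 0.05), with all probe sets of the corresponding responder (open diamonds, not tested). Vertical scatter within a list has no meaning. The list sets reach at most 1.03 in size, in the MS4A list. The responders were chosen for size in this comparison, so nothing is read from their leading sets lying beyond their own lists. Celf4 1426929_at (0.12) and Gja1 1415801_at (-0.09) lie within the range of theirs.

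For each leading probe set, the sets of other genes with the most similar profile were found by the root-mean-square distance between log2 profiles, each centred on its own mean, over the 12 arrays. As the profiles share these arrays, and the difference between cell line and lavage takes the largest part in most of them, this is a description. Celf4 lay closest to both probe sets of Clec4n, a C-type lectin receptor of macrophages (0.231 and 0.236), whose estradiol differences were 2.42 and 2.34. Dkk2 lay closest to Nos1, the neuronal nitric oxide synthase (0.151), and Map2k6 (0.281). Ces2g lay closest to Cdcp1 (0.199) and Sh3yl1 (0.253), which were likewise higher with estradiol (1.75 and 1.30) and not higher in lavage controls than in unstimulated cells (-0.20 and -0.29).

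Crip2 and Gja1 shared a neighbour, the chemokine gene Cxcl2 (0.426 and 0.330). The closest set to Crip2 was that of the death receptor gene Fas (0.397), and the other neighbour of Gja1 was Ptgs2, an inducible prostaglandin synthase (0.359). Sulf2 was followed by Slpi (0.385) and Ccnd2 (0.509), the largest distance among the neighbours. Gpr34 had the receptor gene Pirb (0.388) and Mr1 (0.404), Calml4 had 2 sets of the interferon-induced Ifi44l (0.367 and 0.394), and Ms4a4c had the lipid synthesis genes Acss2 (0.348) and Cyp51 (0.360). Among the 9 genes themselves, Celf4 and Sulf2 were 0.608 apart, Crip2 and Gja1 0.671, and Calml4 and Ms4a4c 0.529.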

How the data were processed

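Total RNA of 12 mouse samples (4 groups of 3) was hybridised to Affymetrix arrays, and groups were taken from the group label. The authors deposited 1 linear intensity per probe set and array, made with RMA per the submitters' processing notes; its version and the genome build are not given in the sources used here. The design had foreseen log2 values or, if linear, log2(value + 1), and the latter was used, which understates differences of dim probe sets. Probe sets were named by the platform annotation (20380 with 1 symbol, 691 with several, 1555 with none, 64 controls; 0 symbols replaced, 29 without a current gene ID). No 2 arrays held identical values. The number of arrays limits the precision.

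Each comparison was fitted in limma 3.58.1 (R 4.3.3, data.table of version 1.17.8; lmFit and eBayes) on its 6 arrays, two-sided, with Benjamini-Hochberg adjustment over the 20380 probe sets and calls at an adjusted p under 0.05; the fit was checked on simulated data. Standard errors are limma's. The 9 genes, the lists (228 entries, 172 measured, markers included) and the tests were chosen with earlier results of these data known. Named were all probe sets of the 9 genes, up to 3 called sets per list and comparison by smallest p, and the 2 nearest profiles per gene. Sdc3 was added beside the other syndecans. Promoters were those of the 2 genes with the largest rise and the 2 with the largest fall that had an entry and lay off chromosome 18, from RefSeq. Marker sums are log2 of summed intensities. Python 3.11.15, pandas 2.3.3, numpy 2.4.6 and matplotlib 3.10.9 were also used.

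Alternatives were quantile normalization, a common median, no pseudocount, a gene's mean or 1 probe set per gene, a filter on dim sets (3 or more arrays over the 40th percentile), a trended robust prior, array weights, 1 fit of 12 arrays, an adjusted p under 0.01, a 2-fold minimum and each array left out in turn. The ratio of mean intensities and a floor at the 10th percentile were added after seeing the data.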

Additional observations from a re-analysis of the deposited data

How the results depend on the processing

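Under every other setting run for them, 5 of the 9 genes were more than 2-fold higher and 4 more than 2-fold lower with estradiol, and 0 of their probe sets were called in pregnancy (adjusted p of 0.0968 to 0.682 for Crip2 and 0.230 to 0.694 for Gpr34). Ratios of mean intensities, and a floor at the 10th percentile, both added after seeing the data, kept the direction of all 9. Averaging a gene's probe sets moved Ms4a4c to -1.96. Counts of list probe sets raised by estradiol (6) and lowered (12) depended on the settings. Array weights, whose estimate stopped before it converged, gave 32 and 23 and called 38.7% of all probe sets. One fit of all 12 arrays gave 2 raised, an adjusted p under 0.01 gave 2 and 4, and a 2-fold minimum gave 0 and 1. Leaving out each array in turn gave 2 to 10 raised and 4 to 16 lowered. In pregnancy, 1 list probe set was called in the fit of all 12 arrays, that of Csrp1 (0.49, SE 0.07, adjusted p = 0.029, against 0.397 on the 6 lavage arrays). Crip1 was also lost under quantile normalization (adjusted p = 0.0593) and without the pseudocount (0.0503), and Csrp2 under the trended prior (0.0542) and in the fit of all 12 arrays (0.185). The causes were not tested. Of the 18 nearest profiles, 16 were also found after quantile normalization. No paired analysis was possible because replicate numbers were given in deposit order only. With 3 arrays per group, and readings near the 10th percentile for several genes, small differences could not be detected.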
